A study of Mus musculus with 28 samples.

Results

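The genes described here are 42 genes of the cell cycle and of DNA replication, taken by symbol from the count tables of primary mouse microglia. They were taken as a list of symbols, drawn up with earlier results of these data known, and all 42 were found once each among 54427 gene entries, 29066 of which had a count in some library. They comprise 8 genes of origin licensing and the MCM helicase, 2 of the replication fork, 4 of nucleotide supply, 6 cyclins, 3 cyclin-dependent kinases, the transcription factor E2f1, the inhibitor Cdkn1a, 5 mitotic kinases, 6 genes of the kinetochore and spindle, 2 of the anaphase-promoting complex, the proliferation markers Mki67 and Top2a, and Stmn1 and Hmgb2. Below, the first 3 of these sets are called the replication genes (14), and the mitotic kinases, the kinetochore and spindle genes and the genes of the anaphase-promoting complex are called the mitosis genes (13), which leaves 15 others.

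The 28 libraries came from microglia of APOE3 mice (genotype label WT) or of mice homozygous for the Christchurch variant of APOE3 (APOE3S/S, label Christchurch), and the cells were left untreated (label Control) or were given tau or amyloid. There were 6 untreated libraries of APOE3 and 4 of APOE3S/S, and for each genotype 6 with tau and 3 with amyloid. Library titles follow 2 naming series, here the SAN titles (17 libraries, every treatment) and the second titles (11 libraries, untreated and tau). The labels state neither age, sex, dose and exposure time nor the form of tau or amyloid nor how the alleles were made. They also leave out whether replicates were separate cultures or animals, so a p-value measures the spread among these libraries alone, and that spread may be technical.

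A dividing cell loads the MCM helicase onto replication origins with Cdc6 and Cdt1. It starts DNA synthesis after cyclin D with Cdk4, and then cyclin E with Cdk2, release E2F factors from RB. It copies its DNA with Pcna as the sliding clamp, and then separates its chromosomes under Cdk1 with cyclin B, Plk1 and the Aurora kinases. The inhibitor p21, encoded by Cdkn1a, holds cyclin-dependent kinases back and is a well-known p53 target. Microglia divide slowly in the adult brain and renew themselves under signals through Csf1r.

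Library totals ran from 14464761 to 18683896 counts in the SAN titles and from 15967897 to 27220695 counts in the second titles. Levels are given as counts per 1000000 counts of the library (CPM), not divided by gene length because the kit counts transcript ends, and are compared only within a gene. The lowest count of any of the 42 genes in a library was 13, for Cdc6. All 12 microglial markers looked at were detected in all 28 libraries, with a summed level of 7479 to 12474 CPM. Among lymphocyte and granulocyte markers, S100a8 was detected in every library at 2.30 to 21.5 CPM and Cd79a in 20 of the 28 with at most 10 counts, while Nkg7, S100a9 and Mpo were at 0 in every library. The 8 markers of border-associated macrophages and monocytes summed to 1274 to 1717 CPM in the SAN titles and 2364 to 3620 CPM in the second titles, with Lyve1 at 0 in 22 of the 28 libraries. In bulk RNA, fewer cells of a type and less RNA per cell cannot be told apart. The 42 genes together took 1004 to 1291 CPM in the SAN titles and 1159 to 1611 CPM in the second titles.

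Tau lowered 3 of the 42 genes in APOE3 microglia and raised 1, in a fit of all 22 untreated and tau libraries with a term for title series (edgeR quasi-likelihood test, a call at a Benjamini-Hochberg adjusted p under 0.05 over all genes tested). The 4 calls are 9.52% of the 42, and 14.8% of the 13905 genes tested were called, with 5.87% called lower. The median log2 fold change was -0.12 over the 42 genes, 28 of which were below 0, and -0.02 over all genes.

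Pcna, the sliding clamp of the replication fork (chr2:132249162-132253314, minus strand, GRCm38), was read at 233, 175 and 161 CPM in the untreated APOE3 libraries of the SAN titles and at 129, 123 and 125 CPM with tau. In the second titles it was at 244, 299 and 281 CPM untreated and at 189.6, 207 and 189 CPM with tau. All tau libraries lay below all untreated libraries of their own title series, and Pcna fell by 0.50 on the log2 scale (SE 0.09, edgeR adjusted p = 0.00059).

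Stmn1 encodes stathmin, which takes microtubules apart and is abundant in dividing and immature cells (chr4:134468320-134473843, plus strand). It stood at 46.5, 35.2 and 23.8 CPM in untreated APOE3 libraries of the SAN titles against 19.7, 17.4 and 15.0 CPM with tau, and at 33.7, 41.0 and 48.5 CPM against 16.3, 31.6 and 21.6 CPM in the second titles. The groups did not overlap within either title series. The log2 fold change was -0.90 (SE 0.20, edgeR adjusted p = 0.0034).

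Cdk4, the kinase that cyclin D activates in G1 (chr10:127063534-127067920, plus strand), measured 131, 108 and 116 CPM without tau and 79.2, 85.2 and 77.0 CPM with it in the SAN titles. The second titles gave 106, 118 and 122 CPM without tau and 98.8, 105 and 100.3 CPM with it. The separation was narrow in the second titles, where the lowest untreated library was just above the highest tau library. Cdk4 fell by 0.34 on the log2 scale (SE 0.09, edgeR adjusted p = 0.010).

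Cdkn1a (chr17:29090976-29100727, plus strand) moved the other way. It was at 110.1, 126 and 138 CPM in untreated APOE3 libraries and at 203, 212 and 199.9 CPM with tau in the SAN titles, and at 184, 182 and 178 CPM against 227, 188 and 211 CPM in the second titles. Every tau library was above every untreated library of its title series, by a wide margin in the SAN titles and a small one in the second. Cdkn1a rose by 0.48 on the log2 scale (SE 0.13, edgeR adjusted p = 0.012). These 4 calls were kept when any 1 of the 12 APOE3 libraries was left out, and without a term for title series Cdkn1a alone passed (edgeR adjusted p = 0.041). Of 7 tested markers of border-associated macrophages and monocytes, 4 rose with tau in APOE3 and none fell. Their sum was 1274 to 1498.5 CPM untreated and 1414.1 to 1446.8 CPM with tau in the SAN titles, and 2363.7 to 2735.6 CPM against 2856.9 to 3072.3 CPM in the second. Their part in these results was not tested.

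The other 38 genes were not called in this comparison. Mki67, the protein that coats mitotic chromosomes and serves as the standard proliferation marker, had a log2 fold change of 0.43 (SE 0.20, edgeR adjusted p = 0.15), and Top2a, the topoisomerase that untangles sister chromosomes, one of -0.23. Top2a was at 20.4, 30.9 and 22.5 CPM untreated and 29.8, 26.2 and 23.4 CPM with tau in the SAN titles, and at 27.1, 39.2 and 38.6 CPM against 19.0, 26.5 and 18.9 CPM in the second. Its groups overlapped in the SAN titles and not in the second. The 14 replication genes lay between -0.50 and 0.21 with a median of -0.07, and the 13 mitosis genes between -0.63 for Birc5, a chromosomal passenger protein, and 0.41 for Bub1b, a spindle checkpoint kinase, with a median of -0.26.

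The same 3 genes fell with tau in APOE3S/S microglia. Pcna was at 178 and 177 CPM untreated and at 130.3, 139.5 and 124 CPM with tau in the SAN titles, and at 262 and 229 CPM against 168, 181 and 192 CPM in the second titles, with a log2 fold change of -0.43 (SE 0.10, edgeR adjusted p = 0.021). Stmn1 was at 27.1 and 23.4 CPM against 15.0, 13.8 and 9.89 CPM, and at 43.4 and 58.0 CPM against 35.1, 26.5 and 25.8 CPM (log2 fold change -0.88, SE 0.22, edgeR adjusted p = 0.034). Both genes were lower in every tau library than in every untreated library of the same title series.

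Cdk4 was at 116 and 85.7 CPM in untreated APOE3S/S libraries of the SAN titles and at 73.2, 87.8 and 81.2 CPM with tau, so that the groups overlapped there, and at 124 and 139 CPM against 106, 99.0 and 98.6 CPM in the second titles (log2 fold change -0.35, SE 0.10, edgeR adjusted p = 0.0495). Cdkn1a stood at 137 and 208 CPM against 203, 222 and 232 CPM in the SAN titles and at 158 and 189 CPM against 188, 197 and 199.9 CPM in the second. Its groups overlapped in both series and it was not called (log2 fold change 0.27). The 3 calls are 7.14% of the 42 genes, against 3.28% of all genes tested and 1.14% called lower.

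Over the 42 genes the median log2 fold change with tau in APOE3S/S was -0.34 with 38 genes below 0, against -0.01 over all genes. All 14 replication genes and all 13 mitosis genes were below 0 in this fit of both series. A fit with 1 mean for each group and title series gave the series apart. In the SAN titles 12 of the 42 genes were above 0, among them 6 of 14 replication genes and 1 of 13 mitosis genes. The replication genes had a median of -0.11 there and of -0.38 in the second titles. In the second titles 3 of the 42 were above 0, and all replication and mitosis genes were below. Mki67 was at 32.4 and 38.6 CPM untreated and 46.8, 27.1 and 45.1 CPM with tau in the SAN titles, and at 75.1 and 40.4 CPM against 71.9, 63.8 and 53.7 CPM in the second. Top2a was at 23.9 and 32.5 CPM against 24.8, 13.0 and 17.4 CPM, and at 43.1 and 35.4 CPM against 36.9, 33.8 and 31.8 CPM. Mki67 and Top2a overlapped in both series and were not called. The calls rest on few libraries. None of the 42 genes was called without untreated library 1, untreated library 3 or tau library 6, and 1 was called without untreated library 4, tau library 2 or tau library 4. DESeq2 called 7 of the 42 and the edgeR fit without a title series term 0.

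The tau response of APOE3 microglia differed between the title series for 10 of the 42 genes in a direct test of the difference, from a fit with 1 mean for each group and title series (8 means over 22 libraries). These are 23.8% of the 42, against 5.19% of 14614 genes tested and 2.63% called lower. All 10 differences, coded as the second titles minus the SAN titles, were below 0. They included 6 replication genes (Mcm2, Mcm3, Mcm5, Mcm7, Cdc6 and Rrm2), with Ccne1, E2f1, Mki67 and the mitosis gene Bub1b. The median difference was -0.50 over the 42 genes and 0.01 over all genes.

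**Figure D1:**
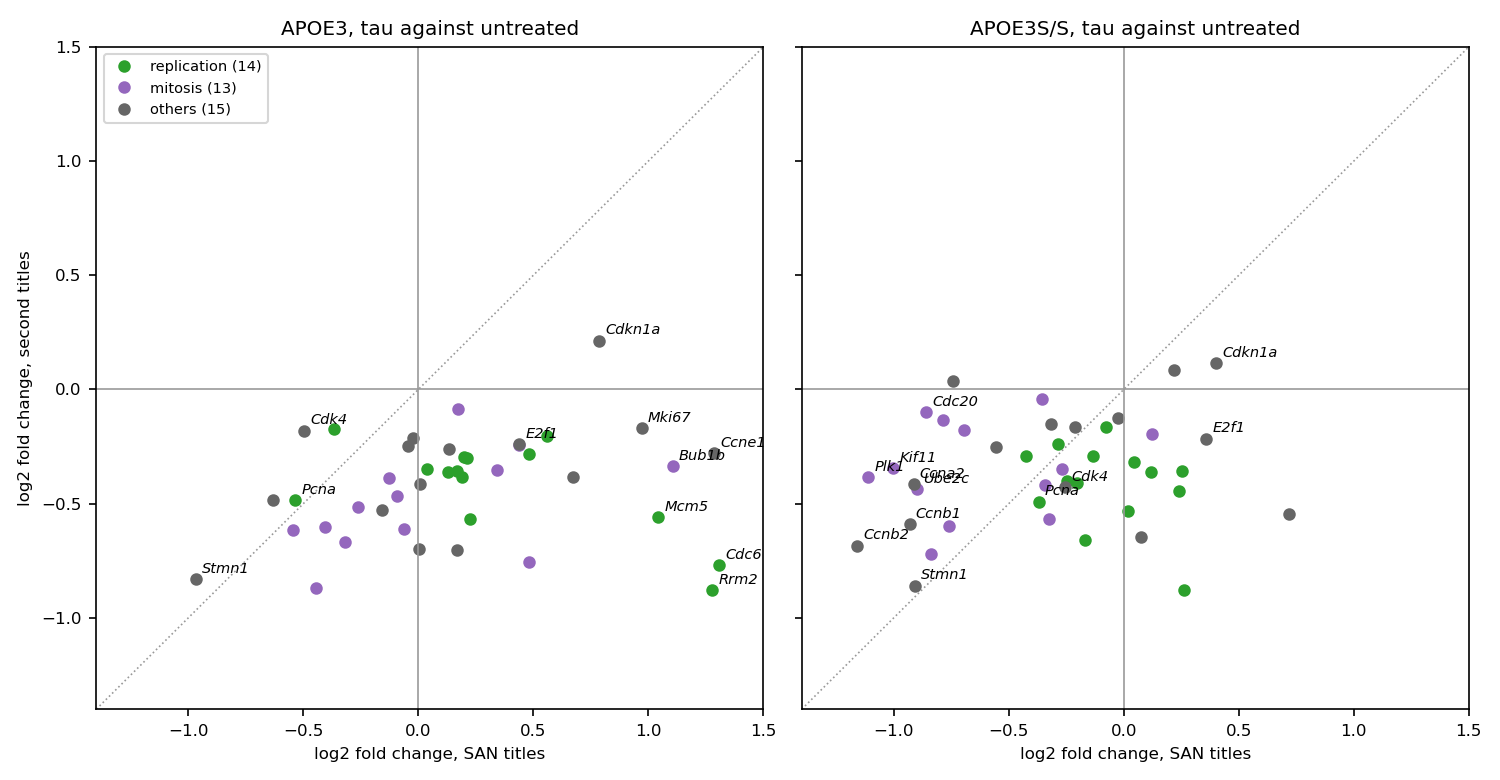
Log2 fold change of each of the 42 genes with tau in the SAN titles (x axis) and in the second titles (y axis), for APOE3 (left) and APOE3S/S (right), coloured by set, with the dotted line marking equal values. In APOE3, 41 of 42 genes lie below 0 on the y axis while 26 lie above 0 on the x axis, and the 2 axes share no library.

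Mcm5, a subunit of the MCM helicase, was at 16.1, 16.1 and 12.6 CPM in untreated APOE3 libraries of the SAN titles and at 30.6, 32.3 and 26.0 CPM with tau, whereas in the second titles it was at 27.0, 34.8 and 30.3 CPM untreated and at 19.3, 22.8 and 20.2 CPM with tau. The order of the groups was reversed between the series with no overlap in either. The difference between the 2 responses was -1.60 on the log2 scale (SE 0.26, edgeR adjusted p = 0.0017).

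Rrm2, the small subunit of ribonucleotide reductase, which makes deoxyribonucleotides, showed the same reversal. It was at 4.15, 4.41 and 5.73 CPM against 10.2, 13.3 and 9.50 CPM with tau in the SAN titles, and at 13.6, 15.1 and 10.6 CPM against 7.13, 9.24 and 5.03 CPM in the second titles. Its difference between the responses was -2.16 (SE 0.37, edgeR adjusted p = 0.0021). Cdc6, the licensing ATPase, is a low-count gene and went from 1.53, 1.09 and 0.856 CPM to 2.64, 3.94 and 1.77 CPM in the SAN titles, while in the second titles 3.26, 5.70 and 4.07 CPM stood against 2.00, 3.76 and 1.99 CPM with overlap (difference -2.08, SE 0.57, edgeR adjusted p = 0.037).

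Ccne1, cyclin E1, was at 3.52, 2.78 and 2.63 CPM untreated and at 6.23, 7.82 and 6.97 CPM with tau in the SAN titles, and its groups overlapped in the second titles (7.00, 6.72 and 9.08 CPM against 7.01, 5.43 and 6.07 CPM). Bub1b was at 13.2, 15.9 and 13.5 CPM against 29.1, 31.7 and 27.0 CPM in the SAN titles, and at 11.9, 15.8 and 14.8 CPM against 11.6, 11.0 and 10.8 CPM in the second. For Bub1b the untreated libraries of the 2 series overlapped, while the tau libraries were far above them in the SAN titles and just below those of their own series in the second. The differences between the responses were -1.56 (SE 0.28, edgeR adjusted p = 0.0027) for Ccne1 and -1.44 (SE 0.26, edgeR adjusted p = 0.0030) for Bub1b.

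Mki67 was at 23.1, 40.0 and 30.7 CPM in untreated APOE3 libraries and at 59.1, 60.1 and 56.0 CPM with tau in the SAN titles, and at 48.7, 62.3 and 49.6 CPM against 47.4, 48.5 and 46.0 CPM in the second. E2f1, the activator of the genes of the G1/S transition, was at 30.0, 33.4 and 29.8 CPM against 38.6, 41.3 and 40.9 CPM, and at 38.5, 39.0 and 32.9 CPM against 29.7, 29.6 and 33.6 CPM. Mki67 was higher with tau in the SAN titles and slightly lower in the second, without overlap in either, and E2f1 overlapped in the second. The differences were -1.14 (SE 0.29, edgeR adjusted p = 0.028) for Mki67 and -0.68 (SE 0.14, edgeR adjusted p = 0.0059) for E2f1.

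The helicase subunits Mcm7, Mcm3 and Mcm2 had smaller differences of -0.79 (SE 0.21), -0.53 (SE 0.14) and -0.51 (SE 0.15), with edgeR adjusted p-values of 0.029, 0.032 and 0.048. Mcm7 was at 28.1, 23.2 and 24.8 CPM against 29.5, 32.0 and 24.0 CPM with tau in the SAN titles, and at 32.6, 38.0 and 33.0 CPM against 22.6, 27.6 and 19.4 CPM in the second. Mcm3 was at 44.1, 40.1 and 48.2 CPM against 48.2, 52.3 and 41.7 CPM, and at 51.0, 62.4 and 50.7 CPM against 42.6, 44.4 and 40.1 CPM. Both overlapped in the SAN titles and were lower with tau, without overlap, in the second. Mcm2 was at 24.6, 24.3 and 27.5 CPM against 26.1, 30.5 and 27.7 CPM with tau in the SAN titles, and at 33.3, 44.0 and 35.1 CPM against 28.6, 32.6 and 29.7 CPM in the second. Its groups overlapped in the SAN titles and not in the second. Mcm5, Rrm2, Ccne1, Bub1b and E2f1 were called whichever of the 12 libraries was left out. The other 5 were lost with some of them, and 5 genes were called without untreated library 5, tau library 3 or tau library 5 and 6 without untreated library 3.

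Within the SAN titles alone, from the fit with 8 means, 8 of the 42 genes rose with tau in APOE3 (Ccne1, Bub1b, Cdkn1a, Mcm5, Rrm2, Mki67, E2f1 and Cdc6) and 3 fell (Cdk4, Pcna and Stmn1). The 11 are 26.2% of the 42, against 21.4% of all genes tested, with 12.0% called higher and 9.43% called lower. Of the 8 that rose, Cdc6 had the highest log2 fold change at 1.31 (SE 0.42) and E2f1 the lowest at 0.44 (SE 0.10). A fit of the SAN libraries alone called 10 of the 42. The summed markers of astrocytes and of the oligodendrocyte lineage were also higher with tau in these libraries, but neither list moved as a whole. Summed astrocyte markers were at 47.0 to 62.5 CPM with tau and 32.4 to 38.7 CPM untreated (2 of 9 rose), and summed oligodendrocyte-lineage markers at 233.7 to 243.8 CPM against 189.9 to 219.7 CPM, although of those 10 genes 2 rose and 2 fell. Log2 fold changes were above 0 for 5 astrocyte markers and below 0 for 4. They were above 0 for 4 oligodendrocyte-lineage markers and below 0 for 6. Of 4 tested neuron markers 3 were below 0, while all 6 tested fibroblast and mural cell markers were above 0, with no call in either list. S100a8 rose by 0.82 on the log2 scale. Their part in the result was not tested.

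Within the second titles the fit with 8 means called none of the 42 in APOE3, where 0.616% of all genes were called, although 22 had an unadjusted edgeR p under 0.05 and a fit of the second titles alone called 5. In these libraries 24 of the 42 genes were lower in every tau library than in every untreated library, against 10.8% of all genes tested, and 41 of 42 log2 fold changes were below 0 with a median of -0.38. The smallest p-values were those of Mcm7 (log2 fold change -0.57, SE 0.14, edgeR adjusted p = 0.071) and Pcna (-0.48, SE 0.13, edgeR adjusted p = 0.076). Cdkn1a was the exception at 0.21.

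In APOE3S/S the difference between the series was called for none of the 42 genes by edgeR, where 0.903% of all genes were called. At an unadjusted p under 0.05 there were 9, and DESeq2 called 2 and limma-voom 1. Ccne1 (difference -1.26, SE 0.30, edgeR adjusted p = 0.053) and E2f1 (-0.57, SE 0.15, edgeR adjusted p = 0.075) came closest. Leaving out untreated library 2 gave 5 calls, and leaving out untreated library 3 gave 3. Whether the difference between title series itself depends on genotype was not tested.

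Within the SAN titles, tau in APOE3S/S lowered 6 of the 42 genes in the fit with 8 means, 14.3% of them, against 7.21% of all genes and 3.18% called lower. All but Ccnd1 act in mitosis. Plk1, the kinase that drives spindle assembly, was at 4.65 and 7.54 CPM untreated and at 3.66, 2.48 and 1.97 CPM with tau (log2 fold change -1.11, SE 0.29, edgeR adjusted p = 0.023). Cyclin B2, Ccnb2, was at 5.16 and 9.68 CPM against 4.39, 2.66 and 2.50 CPM (-1.16, SE 0.34, edgeR adjusted p = 0.045). The 2 untreated libraries lay far apart for both genes, and each tau library was below both.

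Ccnb1, cyclin B1, fell by 0.93 on the log2 scale (SE 0.26), Cdc20, the activator of the anaphase-promoting complex, by 0.86 (SE 0.25) and Kif11, the kinesin that pushes spindle poles apart, by 1.00 (SE 0.29), with edgeR adjusted p-values of 0.036 to 0.042. Kif11 was at 5.84 and 11.3 CPM untreated and at 5.77, 2.54 and 3.99 CPM with tau. Ccnd1, the G1 cyclin, was at 26.9 and 43.9 CPM untreated and at 21.7, 16.4 and 22.8 CPM with tau (-0.74, SE 0.21, edgeR adjusted p = 0.039). A fit of the SAN libraries alone, with fewer libraries to estimate the spread, called none of the 42. In the second titles no gene of the 42 was called in APOE3S/S by the fit with 8 means, against 0.109% of all genes, with 17 at an unadjusted p under 0.05 and 3 called in a fit of that series alone. Pcna (-0.49, SE 0.14, edgeR adjusted p = 0.11) and Cdk4 (-0.43, SE 0.12, edgeR adjusted p = 0.11) had the smallest p-values. There 26 of the 42 genes were lower in every tau library than in both untreated libraries, against 15.6% of all genes tested.

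**Figure D2:**
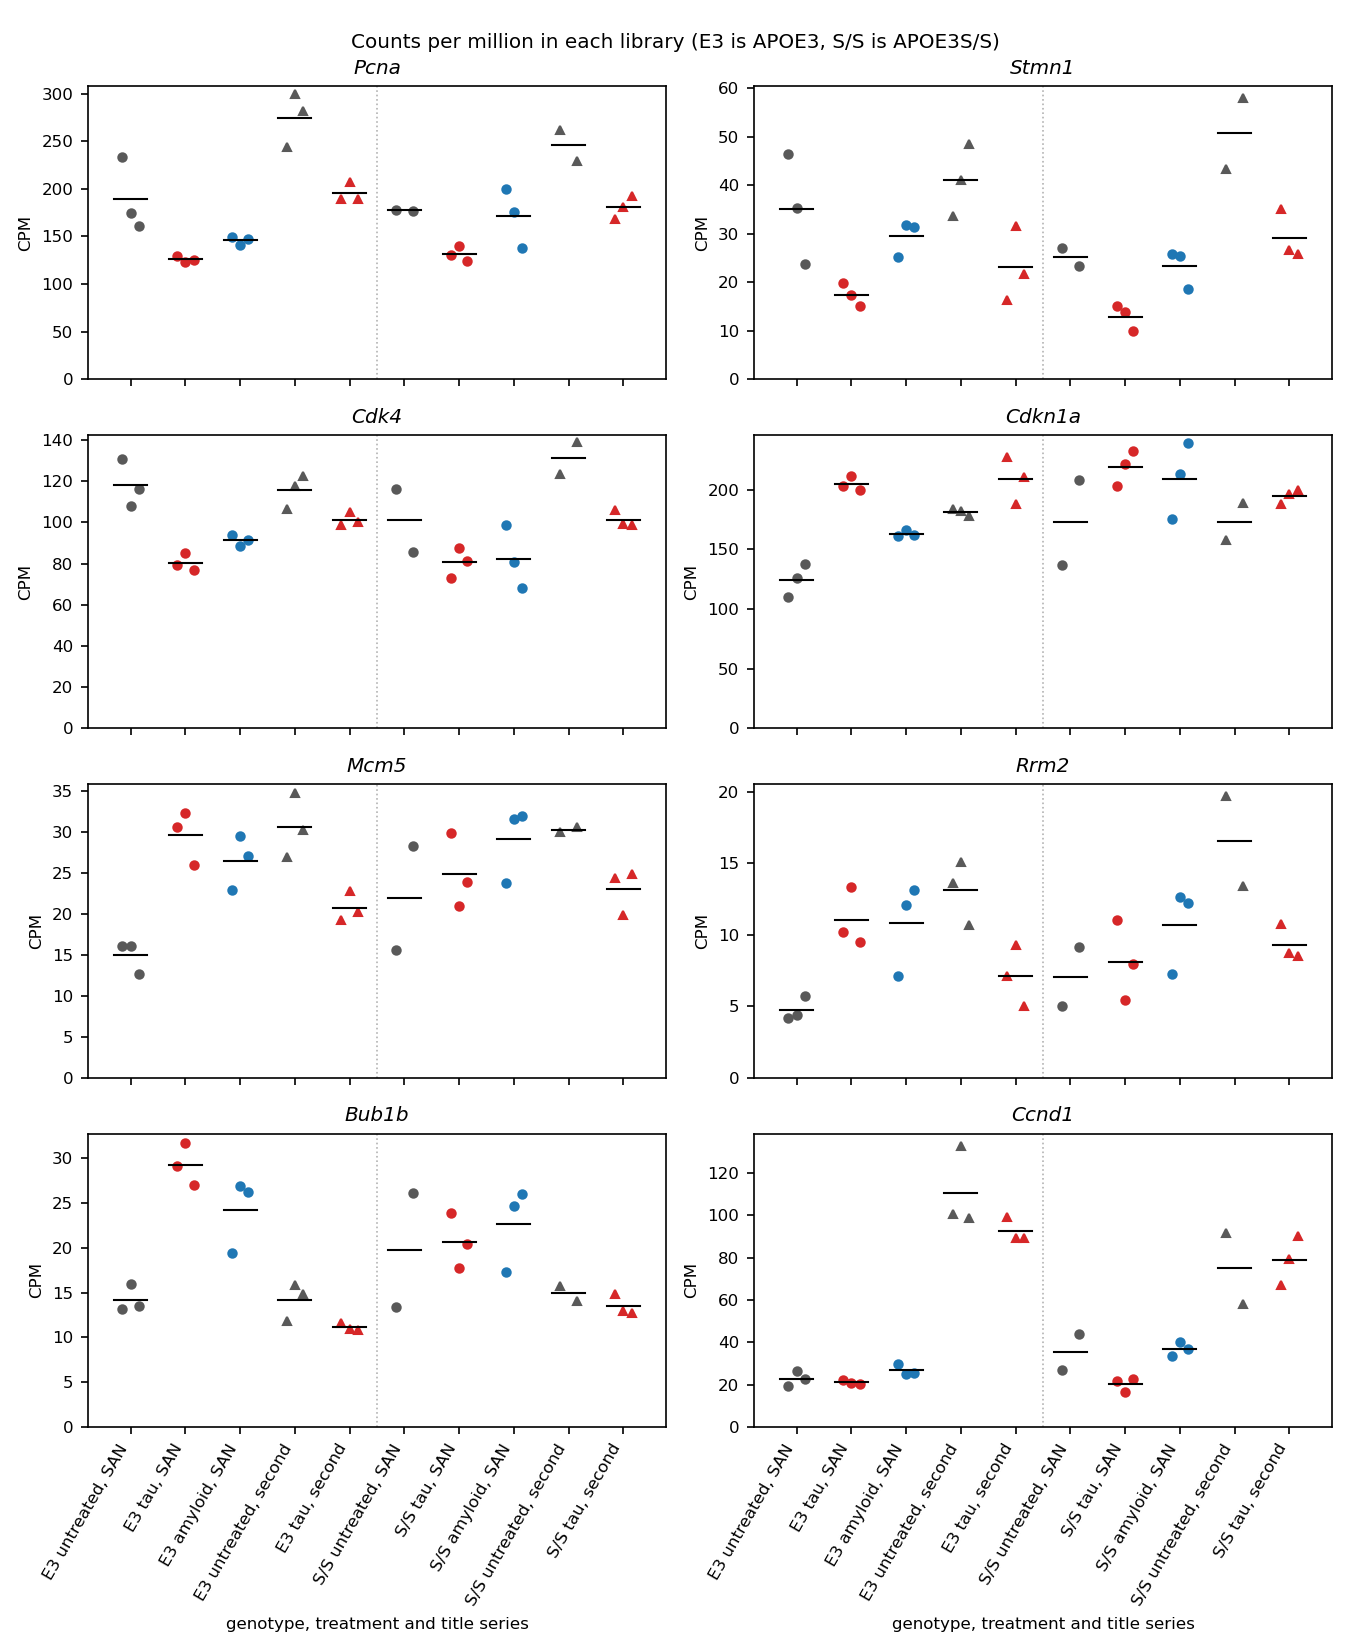
CPM (y axis) of 8 genes in each of the 28 libraries by genotype, treatment and title series (x axis), with circles for SAN titles, triangles for second titles, grey for untreated, red for tau, blue for amyloid and a bar at the mean. Pcna is lower with tau than without in all 4 pairs of groups, while Mcm5 and Rrm2 are higher with tau in the SAN titles of APOE3 and lower in the second titles.

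The untreated libraries themselves differed between the title series. In untreated APOE3 microglia 19 of the 42 genes were higher in the second titles and none was lower, 45.2% of the 42 against 15.4% of all genes tested, of which 7.62% were called higher. Among them were 11 of the 14 replication genes and 1 of the 13 mitosis genes, Tpx2, a spindle assembly factor. The median log2 difference was 0.41 over the 42 genes and -0.01 over all genes. Without untreated library 5 the count was 10 and without untreated library 3 it was 11. The control groups in these tests are those of the tau tests above, and the values of the 2 are not independent.

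Ccnd1 stood furthest apart. It was at 19.5, 26.5 and 22.4 CPM in untreated APOE3 libraries of the SAN titles and at 100.4, 133 and 98.9 CPM in the second titles, and the tau libraries followed their series, at 21.9, 21.0 and 20.3 CPM and at 99.3, 89.4 and 89.2 CPM. No library of one series reached the range of the other. The log2 difference between untreated libraries was 2.35 (SE 0.20, edgeR adjusted p = 2e-07).

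Ccne1 (1.40, SE 0.20), Cdc6 (1.95, SE 0.41), Rrm2 (1.53, SE 0.27) and Mcm5 (1.10, SE 0.19) were the next highest, with edgeR adjusted p-values of 0.0028 or less. The helicase subunits besides Mcm5, namely Mcm2, Mcm3, Mcm4, Mcm6 and Mcm7, were higher by 0.38 to 0.63. Pcna was higher by 0.59 (SE 0.13), Cdkn1a by 0.61 (SE 0.13) and Mki67 by 0.85 (SE 0.21). Gins2, a partner of the helicase at the fork, Tk1, the salvage kinase for thymidine, Ccne2, Cdk1 and E2f1 completed the 19. Hmgb2, a chromatin protein, had the lowest difference at -0.27 and was not called.

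In untreated APOE3S/S microglia 8 of the 42 genes were higher in the second titles and none was lower, 19.0% of the 42 against 11.2% of all genes, of which 5.82% were called higher. Ccnd1 was at 26.9 and 43.9 CPM in the SAN titles and at 91.7 and 58.0 CPM in the second (log2 difference 1.17, SE 0.23, edgeR adjusted p = 0.0029). Mcm2 was at 26.4 and 25.7 CPM against 41.1 and 40.0 CPM (0.74, SE 0.13, edgeR adjusted p = 0.00087). Neither gene overlapped between the series. The others were Mcm3, Rrm2, Ccne1, Stmn1, Pcna and Cdk4, by 0.48 to 1.32. Stmn1 and Cdk4 were not called between the series in APOE3, where their log2 differences were 0.28 and 0.03. The count was 5 without untreated library 1 or untreated library 4.

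Other values moved with the title series. The summed markers of border-associated macrophages and monocytes were 2363.7 CPM or more in all 11 libraries of the second titles and 1717.1 CPM or less in all 17 of the SAN titles. The list did not move as a whole. Of its 7 tested genes, 4 were above 0 and 3 below in the second against the SAN titles of untreated APOE3. In untreated APOE3S/S 3 were above 0 and 4 below, with a median of -0.19. Summed markers of lymphocytes and granulocytes, mostly S100a8, were at 6.59 to 21.7 CPM in the SAN titles and 2.30 to 5.64 CPM in the second. Summed astrocyte markers were at 32.4 to 79.7 CPM and 24.4 to 43.9 CPM, and in untreated APOE3 8 of 9 of them were below 0 in the second against the SAN titles. Of 12 microglial markers 10 were above 0 in untreated APOE3, with 3 called higher, 0 lower and a median of 0.35. In untreated APOE3S/S 8 were above 0, with 2 called higher, 0 lower and a median of 0.25. The 6 tested fibroblast and mural cell markers had medians of -1.23 in untreated APOE3 and 0.77 in untreated APOE3S/S, with no call. Mean depth was higher in the second titles, as were the mean mitochondrial share of counts (1.56% against 1.34%) and the mean share of the 10 highest genes (14.2% against 12.3%). Their part in the differences of the 42 genes was not tested. The labels do not say what the 2 title series are.

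**Figure D3:**
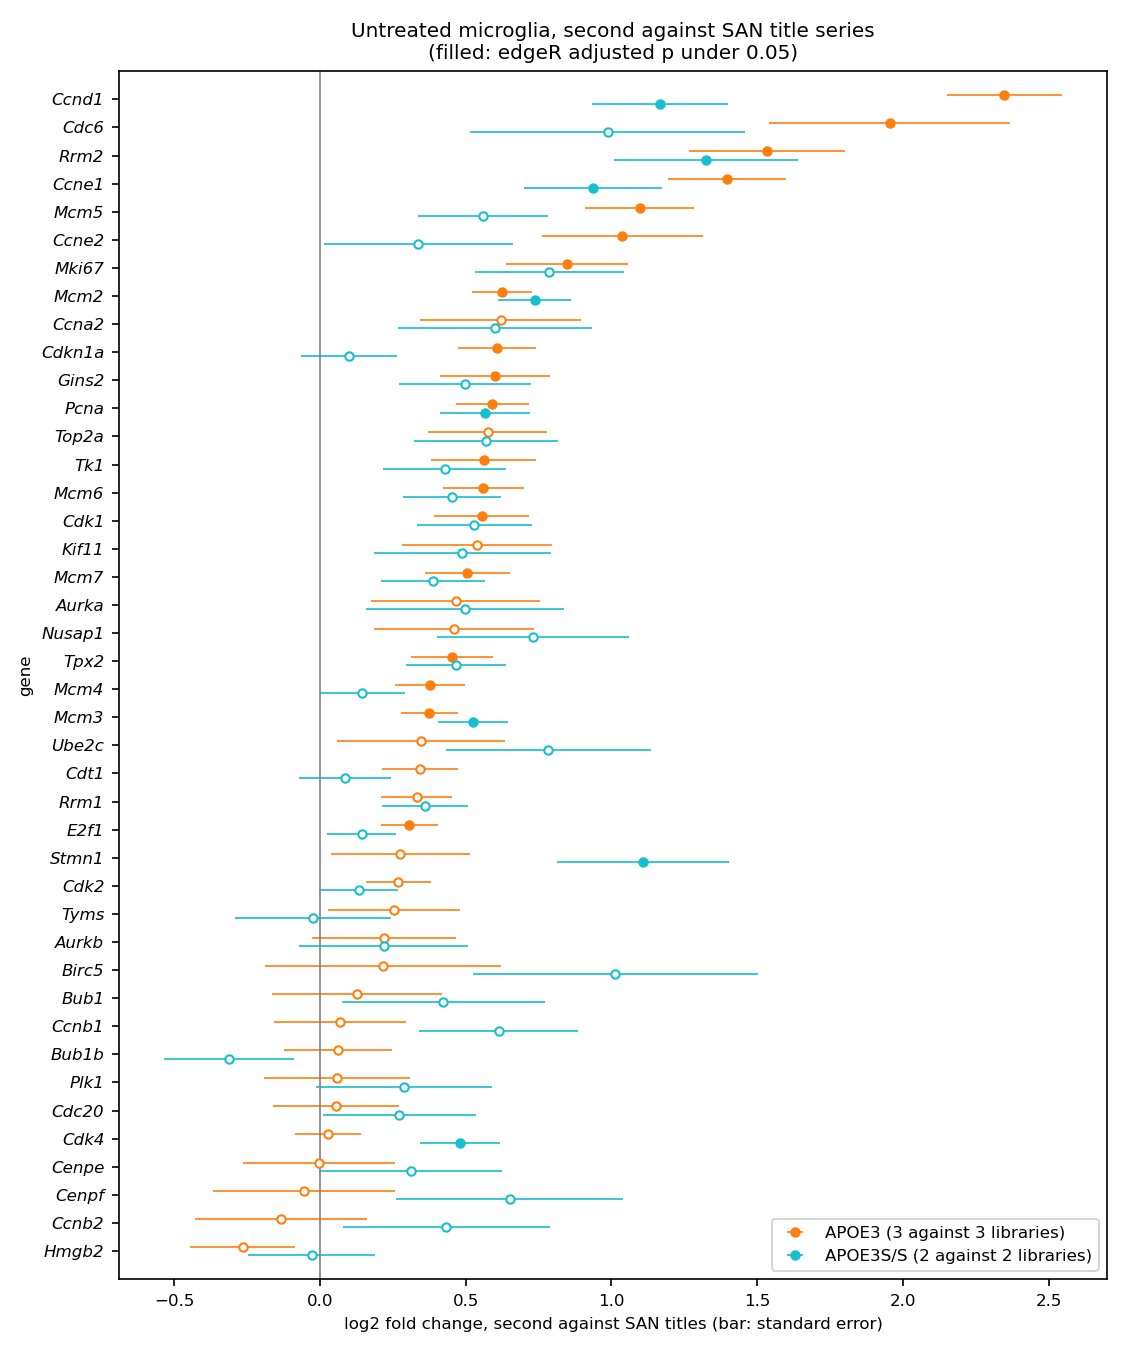
Log2 difference between the second and the SAN titles in untreated microglia (x axis, bars are standard errors) for each of the 42 genes (y axis), in APOE3 and APOE3S/S, with filled points for genes called by edgeR. Ccnd1 is at 2.35 in APOE3 and 1.17 in APOE3S/S, and 38 and 39 of the 42 genes lie above 0.

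Some of the genes that differed in their tau response are shown here with their promoters. Replication and mitosis genes are classically controlled by different promoter elements. Windows of 250 bases before to 50 bases after the start were available in the RefSeq table (GRCm38.p6) for 34 of the 42 genes, in 36 windows. Tpx2, Mcm4, Ccne2, Ccna2, Ccnd1, Aurkb, Stmn1 and Gins2 had none. The letters searched on both strands were an E2F-like element (TTTCCCGC, TTTCGCGC, TTTGGCGC or TTTGCCGC), a CHR-like element (TTTGAA or TTTAAA) and the CCAAT box (CCAAT). Matches are in capitals below, read 5′ to 3′ on the strand of the gene.

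Mcm5: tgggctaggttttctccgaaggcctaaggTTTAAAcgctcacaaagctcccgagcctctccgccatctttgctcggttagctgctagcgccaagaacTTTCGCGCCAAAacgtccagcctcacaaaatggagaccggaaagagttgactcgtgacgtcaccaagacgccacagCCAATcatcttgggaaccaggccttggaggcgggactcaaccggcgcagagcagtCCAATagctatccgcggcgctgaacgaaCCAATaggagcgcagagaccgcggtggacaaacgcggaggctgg
Rrm2: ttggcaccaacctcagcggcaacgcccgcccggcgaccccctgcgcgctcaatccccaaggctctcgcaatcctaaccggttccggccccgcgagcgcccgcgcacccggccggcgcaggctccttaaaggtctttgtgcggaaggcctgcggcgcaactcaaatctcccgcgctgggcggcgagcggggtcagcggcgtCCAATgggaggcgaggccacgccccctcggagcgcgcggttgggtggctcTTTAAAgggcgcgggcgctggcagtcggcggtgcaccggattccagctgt
Bub1b: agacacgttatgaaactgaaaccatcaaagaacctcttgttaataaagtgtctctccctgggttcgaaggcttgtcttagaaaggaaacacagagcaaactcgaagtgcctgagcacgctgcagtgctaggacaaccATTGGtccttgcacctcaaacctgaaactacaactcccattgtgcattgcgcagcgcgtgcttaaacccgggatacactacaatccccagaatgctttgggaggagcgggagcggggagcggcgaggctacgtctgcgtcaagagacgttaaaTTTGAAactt
Pcna: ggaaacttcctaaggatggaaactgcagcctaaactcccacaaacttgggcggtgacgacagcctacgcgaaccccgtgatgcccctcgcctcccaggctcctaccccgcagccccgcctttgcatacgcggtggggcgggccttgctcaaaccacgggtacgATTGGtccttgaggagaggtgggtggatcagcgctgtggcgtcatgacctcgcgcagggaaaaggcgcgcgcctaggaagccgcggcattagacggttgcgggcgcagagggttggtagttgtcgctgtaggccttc
Plk1: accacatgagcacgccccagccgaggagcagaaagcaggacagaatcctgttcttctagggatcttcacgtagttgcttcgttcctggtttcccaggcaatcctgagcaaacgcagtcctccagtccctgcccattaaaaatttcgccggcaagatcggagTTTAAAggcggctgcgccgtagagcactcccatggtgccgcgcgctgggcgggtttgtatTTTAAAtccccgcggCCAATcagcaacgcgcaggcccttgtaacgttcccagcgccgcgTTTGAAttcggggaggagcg

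Mcm5, Rrm2 and Bub1b are examples of the genes with a different tau response in the 2 series. Pcna is one of the genes lower with tau in both, and Plk1 one of those lower in APOE3S/S of the SAN titles. The windows are chr8:75109259-75109558 (plus strand) for Mcm5, chr12:24708004-24708303 (plus) for Rrm2, chr2:118597961-118598260 (plus) for Bub1b, chr2:132253131-132253430 (minus) for Pcna and chr7:122159185-122159484 (plus) for Plk1. In the Mcm5 window 2 E2F-like matches on opposite strands overlap each other. The Rrm2, Bub1b and Plk1 windows held CHR-like and CCAAT letters and no E2F-like letters, and the Pcna window held a CCAAT box alone.

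Over all members the E2F-like letters were in 8 of 36 windows (22.2%), in 6 of 13 replication windows (46.2%) and in 0 of 11 mitosis windows, against 2.26% of 32851 windows of all genes. The CHR-like letters were in 20 of 36 windows (55.6%) and in 9 of 11 mitosis windows (81.8%), against 27.6% of all windows. Both CHR-like and CCAAT letters were in 8 of 11 mitosis windows (72.7%), against 10.7% of all windows. Of the 10 genes whose tau response differed between the series in APOE3, Mcm3, Mcm5, Mcm7 (in 1 of its 2 windows) and Cdc6 had E2F-like letters in a window. The windows of Mcm2, Rrm2, Ccne1, E2f1, Mki67 and Bub1b had none. Unlike the 3 windows of this set printed above, those of Mcm3, Mcm7, Cdc6 and E2f1 had no CHR-like letters. The windows of Ccne1, Cdc6 and E2f1 had no CCAAT box. The windows of E2f1, Cdc6 and Mcm7 lay wholly inside the gene, past its outermost annotated start. For E2f1 the window is chr2:154569377-154569676 (minus) and that start is at 154569892. The letters of these windows, present or absent, need not be those of the main promoter. A match describes these letters in this window and says nothing of binding.

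Genotype made no difference that passed the test for any of the 42 genes. Between untreated APOE3S/S and APOE3 microglia edgeR, DESeq2 and limma-voom each called 0 of the 42, edgeR called 0.00719% of all genes, and 6 of the 42 had an unadjusted edgeR p under 0.05. The median log2 difference was 0.20, with 38 genes above 0. The smallest p-values were those of Tk1 (0.53, SE 0.16, edgeR adjusted p = 0.64) and of Aurkb, the kinase of the chromosomal passenger complex (0.57, SE 0.20, edgeR adjusted p = 0.64). Tk1 was at 5.97, 9.02 and 7.18 CPM in APOE3 and 9.75 and 12.4 CPM in APOE3S/S in the SAN titles, and at 9.90, 10.7 and 10.6 CPM against 12.5 and 15.3 CPM in the second. It was higher in each APOE3S/S library than in every APOE3 library of its series.

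With tau, edgeR, DESeq2 and limma-voom called 0 of the 42 genes between genotypes, against 0.0144% of all genes by edgeR, and none had an unadjusted edgeR p under 0.05. The highest and lowest log2 differences were 0.29 for Birc5 and -0.26 for Nusap1, a spindle microtubule protein. Kif11 (0.22, SE 0.22) and Cdk1 (0.13, SE 0.13) had the smallest p-values, with edgeR adjusted p-values of 1.0. The test of whether tau acted differently in the 2 genotypes called 0 of the 42 with each tool, and 0 of all genes (0%) by edgeR, with none of the 42 at an unadjusted p under 0.05. That difference was below 0 for 39 of the 42 genes, with a median of -0.16, and was smallest in p for Tk1 (-0.43, SE 0.22) and Aurka, an Aurora kinase of the spindle poles (-0.56, SE 0.31).

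**Figure D4:**
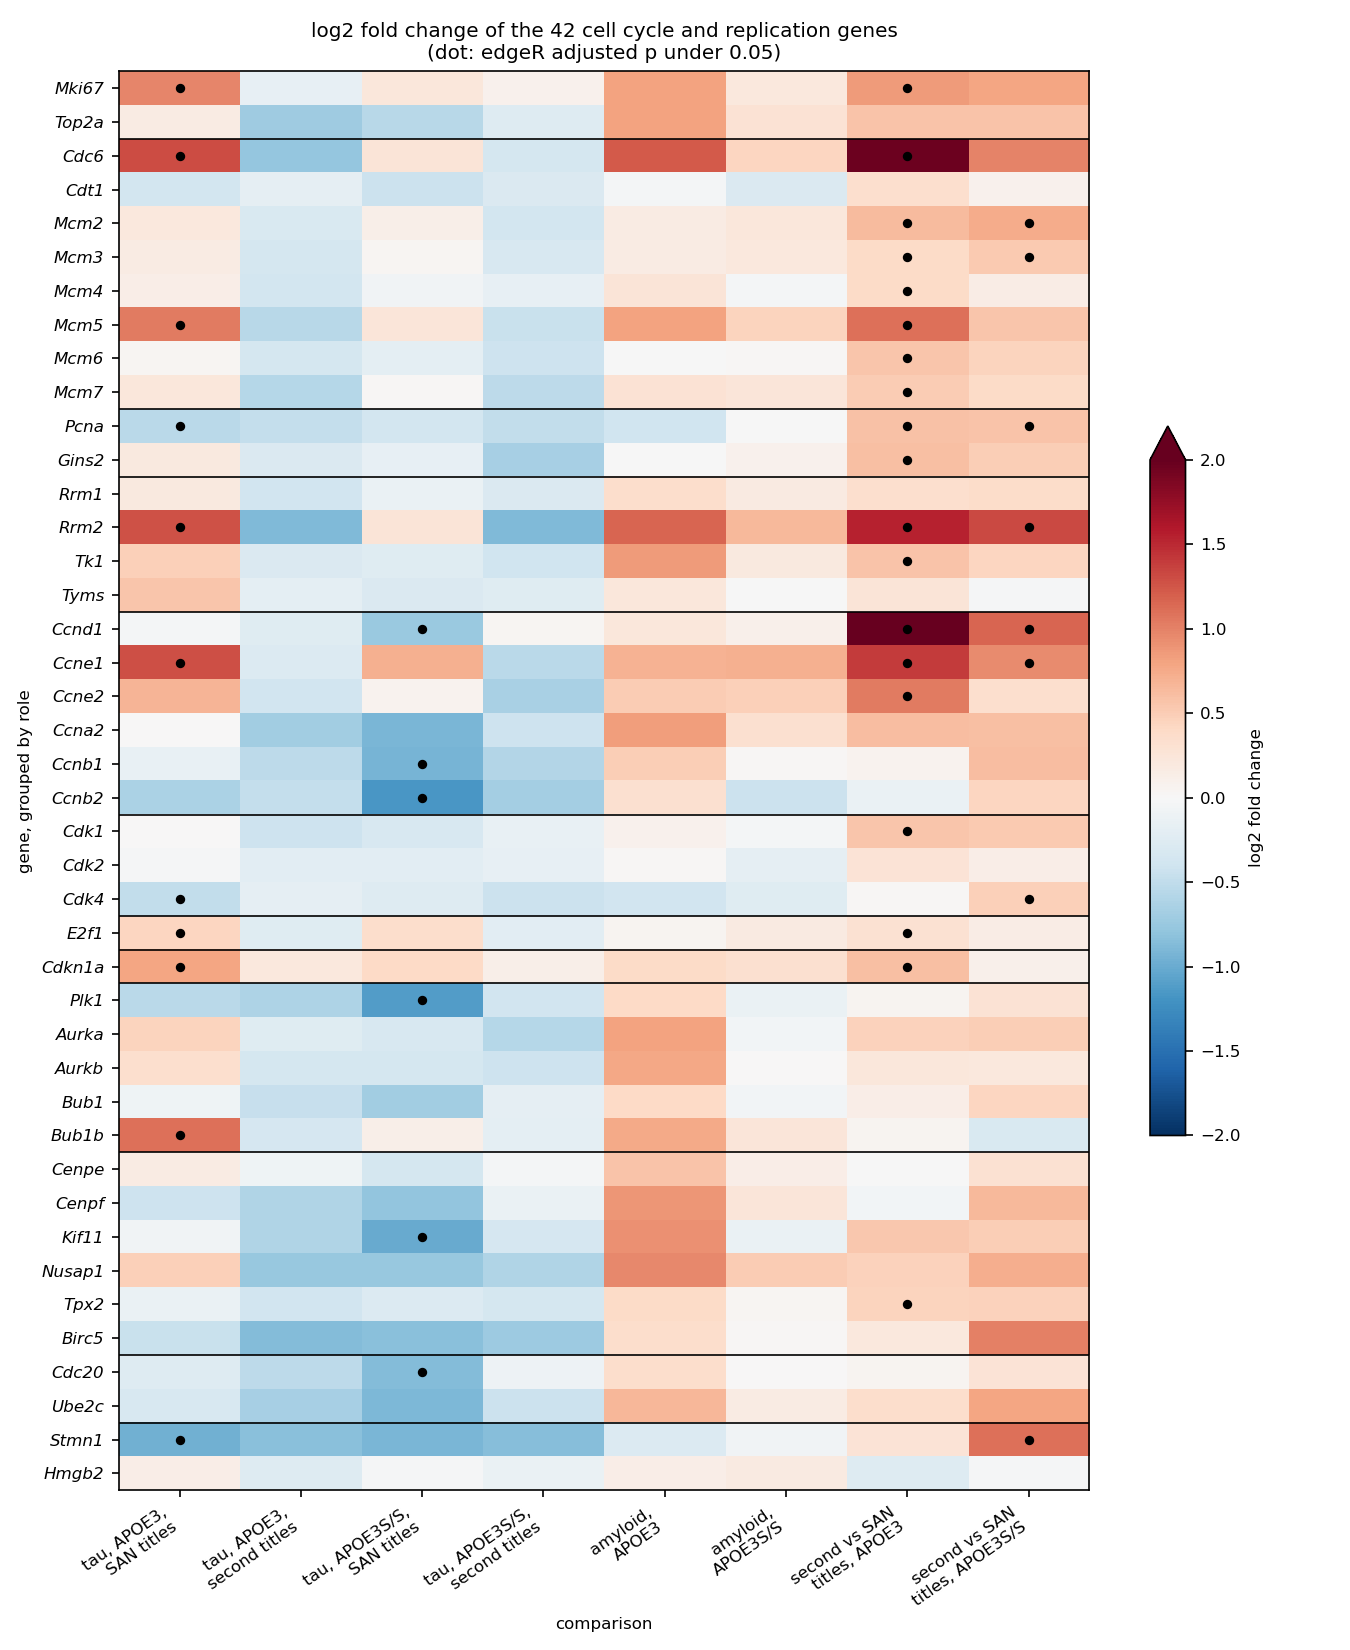
Log2 fold change (colour, from -2 to 2, with Ccnd1 beyond that range in the seventh column) of the 42 genes (y axis, grouped by role) in 8 comparisons (x axis), with a dot where edgeR called the gene. Untreated differences between title series and tau in the SAN titles of APOE3 hold most of the dots, and both amyloid columns hold none.

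Amyloid was given in the SAN titles only, and 3 libraries of each genotype are compared with 3 untreated APOE3 and 2 untreated APOE3S/S libraries of that series. In APOE3, edgeR and limma-voom called 0 of the 42 genes and edgeR 0 of all 13867 genes tested (0%), while DESeq2 called 5 of the 42, and 21 of the 42 had an unadjusted edgeR p under 0.05. The median log2 fold change of the 42 was 0.38 with 36 above 0, while 49.3% of all genes were above 0. All 13 mitosis genes were above 0, with a median of 0.66. Summed astrocyte markers were at 44.7 to 79.7 CPM with amyloid and 32.4 to 38.7 CPM untreated, and oligodendrocyte-lineage markers at 229 to 236 CPM against 189.9 to 219.7 CPM, both without overlap. The 8 tested oligodendrocyte-lineage markers nevertheless had a median log2 fold change of -0.19, with 4 above 0 and 4 below. The 8 tested astrocyte markers had a median of 0.69. The 6 tested fibroblast and mural cell markers had a median log2 fold change of 1.43, with sums of 8.04 to 68.8 CPM against 5.06 to 20.0 CPM that overlapped. Of 7 tested markers of border-associated macrophages and monocytes 6 were above 0, with a median of 0.79. Their sums overlapped, at 1471.3 to 1509.5 CPM with amyloid and 1274 to 1498.5 CPM untreated. Of 12 microglial markers 10 were above 0, with a median of 0.25. No gene of these lists was called, and their part in the result was not tested. In 20 of the 42 genes every amyloid library was above every untreated library, against 13.4% of all genes tested, and Pcna and Cdk4 were the 2 genes with every amyloid library below, against 10.9% of all genes.

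Tk1 and Rrm2 had the smallest p-values with amyloid in APOE3. Tk1 was at 5.97, 9.02 and 7.18 CPM untreated and at 10.5, 16.2 and 13.5 CPM with amyloid (log2 fold change 0.85, SE 0.20, edgeR adjusted p = 0.21). Rrm2 was at 4.15, 4.41 and 5.73 CPM against 7.12, 12.1 and 13.1 CPM (1.17, SE 0.31, edgeR adjusted p = 0.21). Top2a was at 20.4, 30.9 and 22.5 CPM against 35.3, 46.4 and 48.2 CPM, and Mki67 at 23.1, 40.0 and 30.7 CPM against 45.3, 56.4 and 62.6 CPM. For each of these 4 genes all amyloid libraries were above all untreated libraries, and none passed the edgeR test. Cenpf, a kinetochore protein, was at 6.51, 9.05 and 11.6 CPM with amyloid against 4.09, 6.65 and 3.95 CPM untreated, with overlap.

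In APOE3S/S, amyloid left the 42 genes with a median log2 fold change of 0.12, 29 of them above 0. None was called by edgeR, DESeq2 or limma-voom, edgeR called 0% of all genes, and Mcm2 alone had an unadjusted edgeR p under 0.05. It was at 26.4 and 25.7 CPM untreated and at 27.7, 32.0 and 28.9 CPM with amyloid (0.23, SE 0.10, edgeR adjusted p = 0.58). The next smallest p was that of Ccne1 (0.71, SE 0.33). Pcna, Cdkn1a and Stmn1 overlapped between amyloid and untreated libraries in APOE3S/S. Without untreated library 2, in which mitosis genes such as Kif11 (11.3 CPM, against 5.84 CPM in library 1) were high, 1 of the 42 genes was called.

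Between genotypes with amyloid, edgeR, DESeq2 and limma-voom called 0 of the 42 genes and edgeR 0% of all genes, with 7 of the 42 at an unadjusted p under 0.05. Cenpf was at 6.51, 9.05 and 11.6 CPM in APOE3 and at 3.23, 5.33 and 2.83 CPM in APOE3S/S (log2 difference -1.16, SE 0.29, edgeR adjusted p = 0.38), without overlap. E2f1 followed (0.31, SE 0.10, edgeR adjusted p = 0.39). All 13 mitosis genes were below 0 in APOE3S/S with a median of -0.31, and 11 of 14 replication genes were above 0. The 6 tested fibroblast and mural cell markers were all below 0 as well, with a median of -4.26 and none called, and their sums were 8.04 to 68.8 CPM in APOE3 and 2.61 to 5.37 CPM in APOE3S/S. Their part in the result was not tested. The test of a difference in the amyloid response between genotypes called 0 of the 42 with each tool and 0% of all genes by edgeR, with 2 of the 42, Kif11 (-1.03, SE 0.38) and Tk1 (-0.66, SE 0.30), at an unadjusted p under 0.05.

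**Figure D5:**
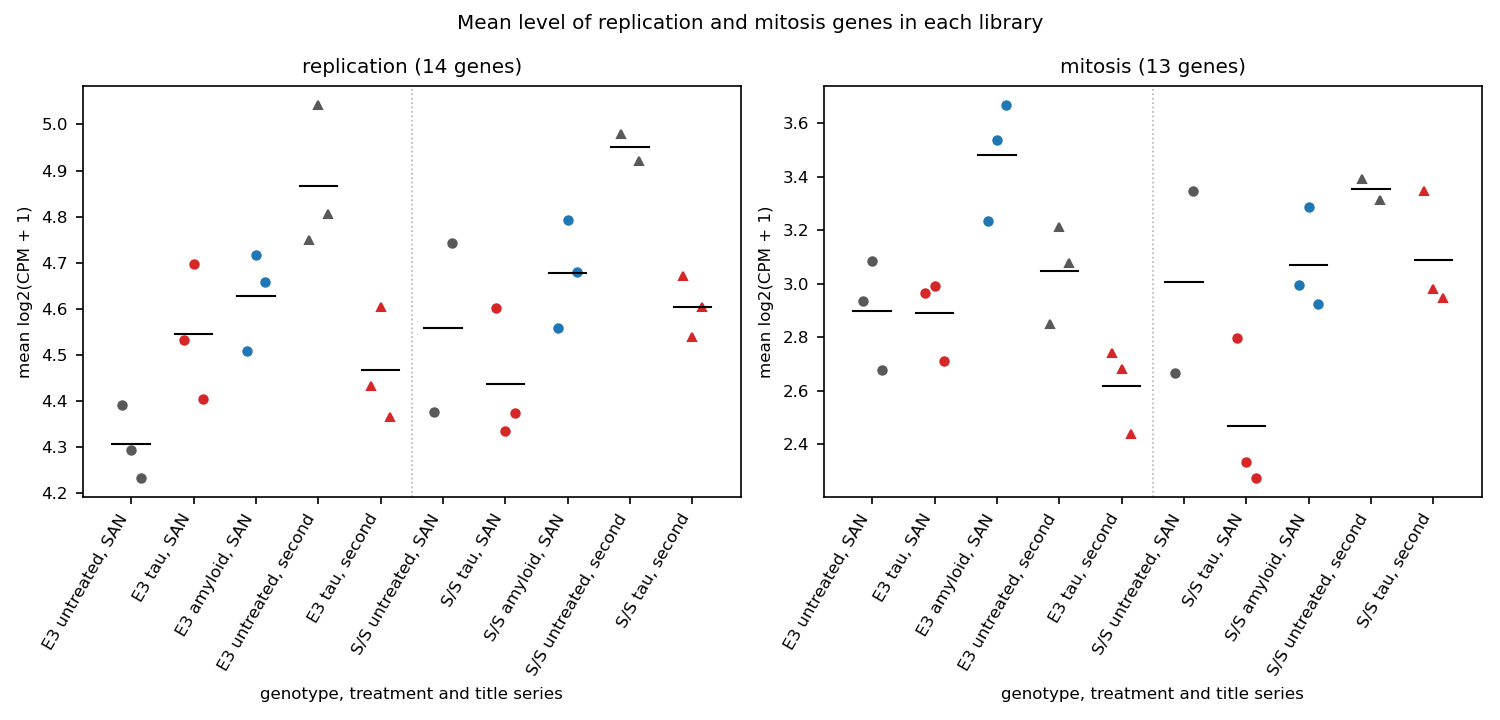
Mean log2(CPM + 1) of the 14 replication genes (left) and the 13 mitosis genes (right) in each library (y axis) by genotype, treatment and title series (x axis), with a bar at the mean. The 3 APOE3 amyloid libraries are at 3.23 to 3.67 for the mitosis genes, against 2.68 to 3.08 in untreated APOE3 libraries of the SAN titles, and the 2 untreated APOE3S/S libraries of the SAN titles differ, at 2.67 and 3.35.

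Tau and amyloid were set side by side within the SAN titles. In APOE3, 5 of the 42 genes were called, 11.9% of them, against 7.33% of all genes tested. E2f1 was higher with tau, at 38.6, 41.3 and 40.9 CPM against 31.2, 33.7 and 32.6 CPM with amyloid (log2 difference 0.40, SE 0.10, edgeR adjusted p = 0.024). The 4 called lower, against 3.21% of all genes called lower, were all mitosis genes. Cenpf was at 3.93, 3.55 and 3.10 CPM with tau and at 6.51, 9.05 and 11.6 CPM with amyloid (-1.27, SE 0.32, edgeR adjusted p = 0.028), and Kif11 was at 6.73, 4.93 and 4.50 CPM against 8.89, 12.3 and 12.2 CPM (-0.96, SE 0.28, edgeR adjusted p = 0.048). Plk1 was at 3.42, 3.94 and 3.86 CPM against 6.13, 7.97 and 8.56 CPM with amyloid, and Tpx2 at 10.9, 11.6 and 8.42 CPM against 14.6, 14.8 and 16.8 CPM. Plk1 (-0.92, SE 0.26) and Tpx2 (-0.49, SE 0.14) had edgeR adjusted p-values of 0.042 and 0.041. The 2 treatments overlapped in none of the 5 genes, yet 1 gene or none was called when any of the 6 libraries was left out. Markers of other cells also differed. With tau against amyloid 6 of 8 tested astrocyte markers were below 0 (median -0.67), as were 6 of 8 oligodendrocyte-lineage markers (-0.57). All 4 neuron markers (-1.09) and 4 of 6 fibroblast and mural cell markers (-0.80) were below 0. Of 7 macrophage and monocyte markers 4 were above 0. Their part in the result was not tested.

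In APOE3S/S no gene of the 42 was called between tau and amyloid by edgeR or limma-voom, against 0.149% of all genes, while DESeq2 called 7 and 18 had an unadjusted edgeR p under 0.05. The log2 differences were below 0 for 40 of the 42 genes, with a median of -0.33, while 49.2% of all genes were above 0. Ccnd1 was at 21.7, 16.4 and 22.8 CPM with tau and at 33.7, 40.2 and 36.9 CPM with amyloid (-0.86, SE 0.17, edgeR adjusted p = 0.087). Nusap1 was at 4.33, 2.89 and 2.68 CPM against 8.16, 9.10 and 6.79 CPM (-1.28, SE 0.31, edgeR adjusted p = 0.14). Neither gene overlapped between the treatments. Without amyloid library 3, edgeR called 7 of the 42.

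Other genes of the same pathways, from lists of general knowledge, were read in the same fits. With tau in APOE3, 1 of 54 tested genes of licensing, replisome and nucleotide supply rose and 0 fell, where 14.8% of all genes tested were called. The one was Dck, the salvage kinase for deoxycytidine (log2 fold change 1.31, SE 0.23, edgeR adjusted p = 0.00069). Of 64 further genes of mitosis and cytokinesis, 1 rose, the securin Pttg1 (0.61, SE 0.18, edgeR adjusted p = 0.021), and 2 fell, the kinetochore genes Ndc80 (-0.58, SE 0.18, edgeR adjusted p = 0.035) and Cenpa (-0.66, SE 0.21, edgeR adjusted p = 0.035). Called or not, 55 of these 64 genes were below 0, with a median of -0.18, against -0.02 over all genes. The median of the 54 replication genes was 0.01. Of 24 G1 cyclins, E2F and RB genes and inhibitors, 1 rose, cyclin D2, Ccnd2 (1.19, SE 0.24, edgeR adjusted p = 0.0018).

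Among 25 tested p53 targets and regulators, 2 rose and 3 fell with tau in APOE3, again beside 14.8% of all genes called. The 3 of smallest p were Sesn2, a stress-induced sestrin (0.43, SE 0.09, edgeR adjusted p = 0.0026), Plk2 (-0.85, SE 0.18, edgeR adjusted p = 0.0026) and Fas, the death receptor (1.33, SE 0.29, edgeR adjusted p = 0.0030). Among 11 tested mitogen receptors and growth regulators, 3 rose and 2 fell. Those of smallest p were Csf2rb2 (0.57, SE 0.12, edgeR adjusted p = 0.0017), Csf1r, the receptor on which microglia depend (0.43, SE 0.09, edgeR adjusted p = 0.0022), and Myc (-0.86, SE 0.18, edgeR adjusted p = 0.0025).

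The test of the tau response between title series in APOE3 called 8 of the 54 further licensing and replication genes, all below 0, beside 5.19% of all genes called and 2.63% called lower, led by Hells, a chromatin remodeller (-1.53, SE 0.23, edgeR adjusted p = 0.0013), Uhrf1, which reads hemimethylated DNA at the fork (-2.40, SE 0.37, edgeR adjusted p = 0.0014), and the polymerase gene Pole (-1.83, SE 0.33, edgeR adjusted p = 0.0030). The median over that list was -0.53. Of the 64 further mitosis genes 4 were called below 0 and 1 above, and the lead was taken by separase, Espl1 (-1.36, SE 0.23, edgeR adjusted p = 0.0020), Mybl2 (-2.44, SE 0.46, edgeR adjusted p = 0.0035) and Cdca2 (-1.58, SE 0.38, edgeR adjusted p = 0.020). Of the 24 G1 and E2F genes 2 were called, both below 0, E2f8 (-2.50, SE 0.42, edgeR adjusted p = 0.0019) and Ccnd2 (-1.38, SE 0.35, edgeR adjusted p = 0.028). The 26 p53 genes had 1 call, above 0, for Plk2 (0.95, SE 0.21, edgeR adjusted p = 0.014), and the 11 mitogen genes 2, both below 0, for Csf1 (-1.11, SE 0.16, edgeR adjusted p = 0.00089) and Csf2rb (-0.75, SE 0.14, edgeR adjusted p = 0.0031). In APOE3S/S no gene of these 5 lists was called in that test by edgeR.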

How the data were processed

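Gene counts of 28 libraries of primary mouse microglia were used as deposited. The authors made the counts from libraries of the QuantSeq 3′ forward kit, per the labels' protocols, on build GRCm38 (mm10) with DESeq2 1.38.3 named in the submitters' processing notes. For the aligner and the counter, a name was not given in the sources used here. Of 60976 listed genes, 6360 without a number, 25 without a name and 189 repeats of a symbol were left out. Counts were tested with edgeR 4.0.16 in R 4.3.3 (TMM scaling, filterByExpr by group, quasi-likelihood test, Benjamini-Hochberg over all genes tested, call under 0.05). Each SE was derived from that test, as the absolute log2 fold change over the square root of the F statistic. Tau and genotype fits had a term for title series, and amyloid fits used SAN titles. DESeq2 1.42.0, limma-voom (limma 3.58.1), RLE scaling, no low-count filter, each library left out, single series, no series term and a replicate block were alternatives. The procedure was tested on simulated data. No 2 of the 378 pairs of libraries were identical. The members and lists were chosen with earlier results of these data known. Named per library are Mki67, Top2a, Pcna, Mcm2, Ccnd1, Cdkn1a and Stmn1 in the main comparisons, and the called members, at most 8 of smallest p, or the 2 of smallest p where none was called. Genes outside the 42 were named only where called in the tau tests, at most 3 a list.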

Additional observations from a re-analysis of the deposited data

Results flagged for a closer look

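In APOE3 microglia the response to tau differed between the 2 title series in a direct test of that difference (second titles minus SAN titles, log2 scale, edgeR with Benjamini-Hochberg adjustment) for 10 of the 42 genes. The differences were -1.60 for Mcm5, -2.16 for Rrm2, -2.08 for Cdc6, -0.79 for Mcm7, -0.53 for Mcm3 and -0.51 for Mcm2 among the replication genes, and -1.56 for Ccne1, -1.44 for Bub1b, -1.14 for Mki67 and -0.68 for E2f1 among the rest. Tests of 4 differences between groups were looked at. For 7 genes in the 4 groups of 4 or 6 libraries, 28 sets of values in all, no library stood far from the others of its group. These groups pool both title series, so a library apart within its own series could be missed.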

How the results depend on the processing

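Counts below are of the 42 genes called, by edgeR unless another tool is named. Of 224 counts under an alternative setting, 181 were within 1.5 times the reported count. These include the counts of 0 that stayed at 0, so the share is no measure of how stable the other counts are. Without the low-count filter the counts were 10 for tau in APOE3, 14 for tau in APOE3S/S, 1 for genotype untreated, 13 for amyloid in APOE3, 3 for genotype with amyloid, 12 for tau against amyloid in each genotype, 3 for the tau response between title series in APOE3S/S and 13 for untreated APOE3S/S between series. DESeq2 gave 7 for tau in APOE3S/S, 5 for amyloid in APOE3, 8 and 7 for tau against amyloid in APOE3 and APOE3S/S, and 2 for the tau response between series in APOE3S/S, where limma-voom gave 1. Without a series term the tau counts were 1 in APOE3 and 0 in APOE3S/S, and with SAN titles alone 10 and 0.

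Leaving out each library in turn gave 4 to 6 for tau in APOE3, 0 to 4 for tau in APOE3S/S, 0 to 1 for amyloid in APOE3S/S, 0 to 1 and 0 to 7 for tau against amyloid in APOE3 and APOE3S/S, 5 to 11 and 0 to 5 for the tau response between series, and 10 to 18 and 5 to 9 for untreated libraries between series. Between genotypes with tau, Kif11 and Cdk1 turned to -0.40 and -0.16 in the SAN titles alone. The cause of these changes was not tested. Of 882 values of single genes under an alternative, 709 kept direction and call, 152 lost the call, 19 gained it and 2 reversed. A replicate block by title series and number called 0 genes in each of the 3 genotype comparisons. Correlations of deviations between libraries of the same number ran from -0.207 to 0.454, best with the own number in 4 of 13. The deviations are from means of only 2 or 3 libraries, so this cannot decide whether the numbers pair the samples. The lowest count of any of the 42 genes was 13, for Cdc6.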
